A study of Mus musculus with 8 samples.

Results

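The carboxylesterases described here were 9 mouse genes, Ces1d, Ces1e, Ces1f, Ces1g, Ces2a, Ces2c, Ces2e, Ces3a and Ces3b, selected with their measured signals in both data sets of the series already known. A gene was measured through the probe sets that both array types held and that the platform annotation assigned to its symbol alone. This gave 8 probe sets for 6 of the 9 genes, out of 20393 probe sets and 12394 genes measured with 1 gene symbol on both arrays. Ces1d had 3 probe sets, and Ces1e, Ces1f, Ces1g, Ces2a and Ces2e had 1 each. Ces2c had no probe set with its symbol alone and was not analysed here. Ces3a and Ces3b were both named by the same probe set, which was assigned to neither gene and is described separately. Because the choice of genes followed from these values, the levels, differences and ratios below are a description of the libraries and carry no independent support.

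All animals were p53-/- mice on a C57BL/6J background, which holds for the control groups too, and the series concerns loss of telomere function in liver. In the tumour data set, hepatocellular carcinomas (HCC) of HBs transgenic mice aged 12 to 15 months were hybridised singly. The series design counts 3 mice in the group lacking mTERC, the RNA component of telomerase (mTERC-), and 3 in the group that has it (mTERC+). In the adenovirus data set, mice received 20000000000 plaque-forming units (PFU) of virus intravenously, and liver RNA was taken 48 hours later. The virus was Ad TRF2DBDM, for a dominant-negative form of the telomere-binding protein TRF2, or Ad GFP, the control. RNA of 3 mice was pooled onto 1 array for each virus, so this data set has no replicates and no test. The promoter behind the HBs transgene is not given in the sources used here. The labels give hepatocytes as the tissue of all 8 arrays, whereas the design speaks of liver and tumour RNA. The hepatocyte marker albumin (Alb) had signals of 38450 to 53965 in the tumours, 11361 with Ad TRF2DBDM and 8672 with Ad GFP. The data sets were scaled separately on different array types, so the tumour and adenovirus signals are not to be set against each other.

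Carboxylesterases are serine hydrolases that cut ester, thioester and amide bonds in lipids, drugs and pesticides, and hepatocytes are one of their main sources. Most are held in the lumen of the endoplasmic reticulum by a short retention signal at the C-terminus, where some of them release fatty acids from stored triacylglycerol for the assembly of very-low-density lipoprotein (VLDL). Enzymes of the Ces1 group tend to prefer substrates with a large acyl group, and those of the Ces2 group substrates with a large alcohol group. In the mouse the genes lie in neighbouring clusters on chromosome 8, and the copies are similar enough in sequence that a probe set can take up signal from a relative.

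The RefSeq promoter table held 4 of the 6 measured genes, and their promoters are printed because they are those of a pair of Ces1 genes and a pair of Ces2 genes, groups that are described side by side below. Each runs 5′ to 3′ along the gene, from 250 bases before to 50 bases after the RefSeq start, on the mouse build GRCm38.p6. The Ces1e promoter lies at chr8:93229570-93229869 on the minus strand, and that of Ces1g at chr8:93337160-93337459 on the minus strand. The Ces2a promoter lies at chr8:104733753-104734052 on the plus strand, and that of Ces2e at chr8:104926010-104926309 on the plus strand. Capitals mark matches, on either strand, to 4 motifs. The TATA box was searched as TATAAA. A second motif was the CCAAT box. The half-site of nuclear receptors was searched as AGGTCA, and a motif like that of C/EBP factors as TTGCNNAA.
Ces1e: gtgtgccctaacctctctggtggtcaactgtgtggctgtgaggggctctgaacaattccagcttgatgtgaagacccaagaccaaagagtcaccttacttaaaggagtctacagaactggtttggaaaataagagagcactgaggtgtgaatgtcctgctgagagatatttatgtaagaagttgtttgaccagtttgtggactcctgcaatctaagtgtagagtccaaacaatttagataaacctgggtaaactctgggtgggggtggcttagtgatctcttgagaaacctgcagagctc
Ces1g: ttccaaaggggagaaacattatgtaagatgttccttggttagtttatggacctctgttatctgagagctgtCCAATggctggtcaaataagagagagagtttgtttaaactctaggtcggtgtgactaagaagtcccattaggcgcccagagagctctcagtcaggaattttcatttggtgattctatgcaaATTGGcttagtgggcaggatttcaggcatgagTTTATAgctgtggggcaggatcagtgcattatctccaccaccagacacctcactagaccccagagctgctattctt
Ces2a: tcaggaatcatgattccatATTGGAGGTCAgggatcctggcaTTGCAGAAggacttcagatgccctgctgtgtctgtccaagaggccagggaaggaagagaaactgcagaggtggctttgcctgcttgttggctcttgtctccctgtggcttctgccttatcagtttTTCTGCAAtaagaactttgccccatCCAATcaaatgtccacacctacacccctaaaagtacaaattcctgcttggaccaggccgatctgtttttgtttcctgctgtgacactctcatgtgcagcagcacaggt
Ces2e: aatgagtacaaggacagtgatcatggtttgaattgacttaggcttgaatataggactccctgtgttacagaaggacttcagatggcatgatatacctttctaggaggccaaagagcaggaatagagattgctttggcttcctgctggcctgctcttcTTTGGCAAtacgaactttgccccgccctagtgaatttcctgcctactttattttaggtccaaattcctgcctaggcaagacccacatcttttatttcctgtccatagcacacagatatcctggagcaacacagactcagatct
The Ces1e window held none of the 4 motifs. In Ces1g, TATAAA read from the other strand lay 26 bases before the start, and CCAAT lay 179 bases before it on the strand of the gene and 58 bases before it on the other. In Ces2a, AGGTCA lay 226 bases before the start, next to CCAAT on the other strand at 231 bases. A further CCAAT lay at 58 bases, and TTGCNNAA lay at 208 bases and, on the other strand, at 83 bases. In Ces2e, TTGCNNAA on the other strand at 93 bases was the only match. Among 32851 RefSeq promoters of the same length, 13.6% held the TATA motif, 16.3% the nuclear receptor half-site, 37.4% the CCAAT box and 10.8% the C/EBP-like motif. A match describes letters only.

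The promoters of Ces2a and Ces2e were the most alike of the 6 pairs, with 61.3% of 300 bases identical, against 51.7% to 55.7% for the other 5 pairs. Their longest shared run was cagaaggacttcagatg, 17 bases long, which started 205 bases before the start of Ces2a and 183 bases before that of Ces2e. The longest run shared by Ces1e and Ces1g was 11 bases.

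Signals are MAS5 intensities on a linear scale, scaled by array. Differences and ratios were taken on log2 of the signal plus 32, which understates the change of low signals. One tumour array stood apart. On mTERC- tumour 2 the 3′/5′ ratio of the Gapdh control, a sign of RNA quality, was 13.8, against 0.983 to 1.18 on the other 5 arrays, and the median signal was 75.1, against 54.5 to 59.4. The 18S control was at 318.5 on mTERC- tumour 2 and 349 on mTERC- tumour 3, whereas the remaining 4 arrays gave 11010 to 27810. Of the 6 measured carboxylesterases, Ces1d, Ces1e, Ces1g and Ces2a had their lowest signal on mTERC- tumour 2, so each difference is given with and without it. Nothing in the labels ties the tumours to batches.

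The tumour comparison asked how the carboxylesterases of mTERC- carcinomas compared with those of mTERC+ carcinomas. Means of 5 of the 6 genes were lower in mTERC- tumours, with log2 differences (mTERC- minus mTERC+) of -0.58 to -1.21, and the mean of Ces2e was higher by 0.16. None passed the test (limma, Benjamini-Hochberg adjusted p at least 0.906 for each, n = 3 and 3), and 2 of the 6, Ces1e and Ces2a, had an unadjusted p under 0.05. Over all genes, 1 of 11980 passed, or 0.00835%, and 604, or 5.04%, had an unadjusted p under 0.05. The groups did not overlap for 1 of the 6, Ces1e, which was lower in mTERC- tumours. Over all genes tested, 4.39% were lower without overlap and 5.75% higher without overlap. The median log2 difference was -0.87 for the 6 genes and 0.02 for all genes. Without mTERC- tumour 2 the median of the 6 was -0.21, and without mTERC- tumour 1 it was -1.35. With a block for the 18S control, which compares mTERC- tumour 1 alone with the 3 mTERC+ tumours, the median turned to 0.20. The differences were then -0.29 for Ces1d, -0.67 for Ces1e, 0.48 for Ces1f, 0.077 for Ces1g, 0.33 for Ces2a and 0.60 for Ces2e, so that Ces1f, Ces1g and Ces2a changed sign.

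**Figure D1:**
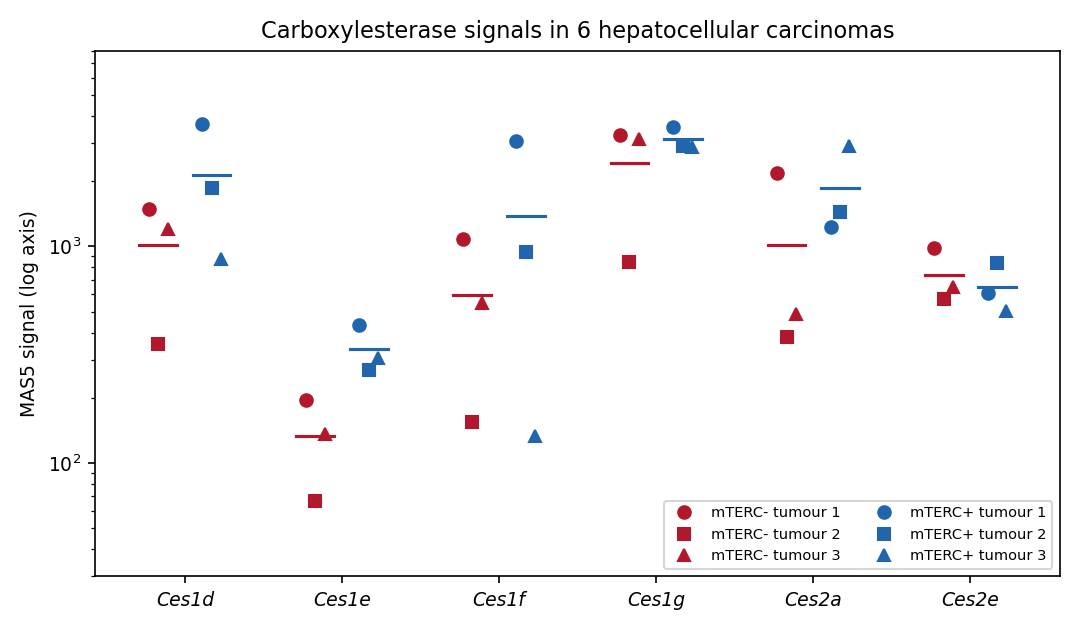
MAS5 signal (log axis) of the 6 measured carboxylesterases in each carcinoma, with 3 mTERC- tumours in red, 3 mTERC+ tumours in blue and a line at each group mean. The groups are apart only for Ces1e (66.9 to 195.2 against 268.9 to 432.5), and levels of different genes come from different probe sets and are not to be set against each other.

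Ces1d, once named triacylglycerol hydrolase (TGH, Entrez gene 104158), releases fatty acids from the lipid stores of hepatocytes for VLDL. Its signal was 1480.9, 355.9 and 1203.3 in mTERC- tumours 1 to 3 and 3681.2, 1856.2 and 872.2 in mTERC+ tumours 1 to 3. The groups overlapped, since mTERC+ tumour 3 lay below mTERC- tumours 1 and 3. The means were 1013 ± 586 (SD, n = 3) and 2137 ± 1425 (SD, n = 3), a log2 difference of -1.04 (SE 0.54, limma adjusted p = 0.953). Without mTERC- tumour 2 the difference was -0.44, and without mTERC+ tumour 3 it was -1.56. The other 2 probe sets of Ces1d covered narrower ranges, from 222.6 to 870.7 and from 97.4 to 155.1 over the 6 tumours. The probe set with the range of 97.4 to 155.1 is of a type that can take up signal from related transcripts. The mTERC- means of these 2 probe sets were 382 ± 62.7 and 115 ± 29.7, and their mTERC+ means 490 ± 338 and 147 ± 9.30 (SD, n = 3 each). With the mean of all probe sets of Ces1d the log2 difference was -0.50 (limma adjusted p = 0.953), against -1.04 with the brightest.

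Ces1f (Entrez gene 234564) carries the older name TGH-2 and is a close relative of Ces1d. The only probe set of Ces1f is also of a type that can take up signal from related transcripts. Its signals in mTERC- tumours were 1080.7, 154.2 and 547, and in mTERC+ tumours 3080.8, 946.2 and 133.3. The lowest and the highest value both came from the mTERC+ group and were 23.1-fold apart, so the mTERC- range lay within the mTERC+ range. The means were 594 ± 465 and 1387 ± 1522 (SD, n = 3 each), with a log2 difference of -0.69 (SE 0.82, limma adjusted p = 0.967). The direction turned without mTERC+ tumour 1 (0.29) and was lost without mTERC- tumour 2 (0.01). The SD of Ces1f over the 6 tumours, 1.63 on the log2 scale, lay at percentile 99.7 of all genes tested.

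Ces1g (Entrez gene 12623, older name Ces1) is a hepatic enzyme whose loss in mice is known to raise liver and blood lipids. It gave 3280.9, 847.9 and 3121.1 in mTERC- tumours and 3561.9, 2919.3 and 2888 in mTERC+ tumours. Apart from mTERC- tumour 2, the remaining 5 tumours lay close together, with an SD of 0.12 on the log2 scale against 0.76 for all 6. The means were 2417 ± 1361 and 3123 ± 380 (SD, n = 3 each), and the log2 difference was -0.58 (SE 0.45, limma adjusted p = 0.953). Without mTERC- tumour 2 it was 0.04.

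Ces1e (Entrez gene 13897) encodes egasyn, the esterase that holds β-glucuronidase in the endoplasmic reticulum of liver. The signals were 195.2, 66.9 and 136.6 in mTERC- tumours and 432.5, 268.9 and 306.6 in mTERC+ tumours. Every mTERC- tumour lay below every mTERC+ tumour. The means were 133 ± 64.2 and 336 ± 85.7 (SD, n = 3 each). The difference was -1.21 on the log2 scale (SE 0.41), with an unadjusted limma p of 0.00954 and an adjusted p of 0.906. Leaving out single tumours gave -1.49 (without mTERC- tumour 1) to -0.89 (without mTERC- tumour 2). Gusb, the gene of β-glucuronidase itself, gave 1026.9, 423.6 and 1268 in mTERC- tumours and 676, 843.5 and 800.7 in mTERC+ tumours, with a log2 difference of 0.09 (SE 0.40, limma adjusted p = 0.991).

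Ces2a (Entrez gene 102022, older name Ces6) belongs to the Ces2 group. Its mTERC- values were 2179, 380 and 485.1, and its mTERC+ values 1230, 1435.5 and 2908.8. Only mTERC- tumour 1 reached into the mTERC+ range. The means were 1015 ± 1010 and 1858 ± 916 (SD, n = 3 each). The difference was -1.18 on the log2 scale (SE 0.54), with an unadjusted limma p of 0.0456 and an adjusted p of 0.953. The difference was -1.93 without mTERC- tumour 1 (limma adjusted p = 0.255, the smallest of any of the 6 genes with a tumour left out) and -0.72 without mTERC- tumour 2. The sign turned, to 0.33, when the 18S control was blocked, a fit that compares mTERC- tumour 1 alone with the mTERC+ tumours.

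Ces2e (Entrez gene 234673, older name Ces5) lies in the same gene cluster as Ces2a. It varied least, at 981, 570.2 and 651.1 in mTERC- tumours and 609.4, 834.6 and 504.3 in mTERC+ tumours. The groups overlapped, with means of 734 ± 218 and 649 ± 169 (SD, n = 3 each) and a log2 difference of 0.16 (SE 0.36, limma adjusted p = 0.984). Without mTERC- tumour 2 the difference was 0.32, and without mTERC- tumour 1 it was -0.06. Its SD over the 6 tumours was 0.34 on the log2 scale, at percentile 18 of all genes tested.

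**Figure D2:**
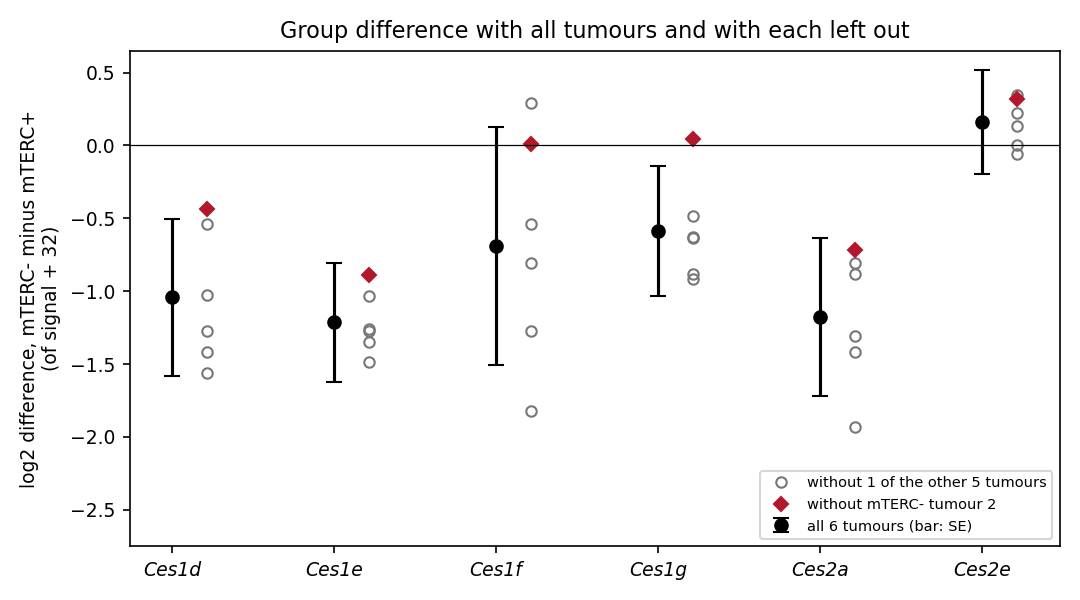
Log2 difference between mTERC- and mTERC+ tumours for each carboxylesterase, with all 6 tumours (black, bar of 1 SE) and with 1 tumour left out (red for mTERC- tumour 2, open circles for the other 5). Ces1d, Ces1e and Ces2a stay below 0 in these fits, whereas Ces1f, Ces1g and Ces2e have values on both sides of 0.

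The members varied more between tumours than the typical gene, with a median SD of 0.94 on the log2 scale against 0.54 for all genes tested. Without mTERC- tumour 2 these values were 0.66 and 0.48. The mean log2 level of the 6 genes was 10.22, 8.41 and 9.48 in mTERC- tumours and 10.63, 10.14 and 9.62 in mTERC+ tumours, so the groups overlapped in mTERC- tumour 1. Across the 6 tumours, all 15 pairs of members had a Pearson r above 0, from 0.03 (Ces1e and Ces2e) to 0.91 (Ces1d and Ces1f), with a median of 0.57. Without mTERC- tumour 2 the median was 0.27, and 11 of 15 pairs were above 0. Ces1d and Ces1f then had an r of 0.94, Ces1f and Ces1g 0.82, and Ces1d and Ces1g 0.76. Ces2a had an r of -0.19 with Ces1d, -0.29 with Ces1f and -0.23 with Ces1g, but 0.49 with Ces1e. Among the Ces1 genes, Ces1e had an r of 0.57 with Ces1d, 0.30 with Ces1f and 0.27 with Ces1g. These r describe few tumours that share the array scaling, and no test was made. The probe set of Ces1f can take up signal from related transcripts, and the part of this in its r with Ces1d was not tested.

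The probe set shared by Ces3a and Ces3b, liver esterases of the Ces3 group, gave 201, 92.6 and 105.5 in mTERC- tumours and 349.6, 379.2 and 1400.2 in mTERC+ tumours. The groups did not overlap, at 133 ± 59.2 and 710 ± 598 (SD, n = 3 each), with the highest value in mTERC+ tumour 3. This probe set was left out of the fit because it names more than 1 gene, and which of the genes gives the signal cannot be told apart.

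Of the 11 other carboxylesterases listed, 3 passed the level filter in the tumours and none passed the test (limma, smallest adjusted p = 0.953). Ces1c, the form secreted into blood plasma, gave 11544, 6778.8 and 5934.1 in mTERC- tumours and 14035, 7405.5 and 9454.5 in mTERC+ tumours, with a log2 difference of -0.36 (SE 0.36, limma adjusted p = 0.967). Ces2g had a higher mean in mTERC- tumours, at 496.8, 205.4 and 418.3 against 169.3, 131.7 and 302.7, with a log2 difference of 0.79 (SE 0.42, limma adjusted p = 0.953). Ces1h, with 70.6 to 213.4 over the 6 tumours, differed by -0.20 (SE 0.43, limma adjusted p = 0.984). The probe sets of Ces2b, Ces2f, Ces4a and Ces5a gave 3.6 to 188.4 in the tumours and did not pass the level filter.

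Bulk tumour RNA was measured, so fewer hepatocytes and less carboxylesterase RNA per hepatocyte cannot be told apart. The summed signal of the 8 measured of 9 hepatocyte markers was 175700 to 251659 in mTERC- tumours and 204971 to 264537 in mTERC+ tumours, overlapping between the groups. Of these markers 7 of 8 had a lower mean in mTERC- tumours, with a median log2 difference of -0.10, and none was at 0. The 5 neutrophil markers summed to 8995 to 20869 in mTERC- tumours and 287 to 2864 in mTERC+ tumours, without overlap. The sums of the 4 cholangiocyte markers were also higher in mTERC- tumours without overlap (424.6 to 700.6 and 278.5 to 380.9). Of these markers 2 of 4 passed the level filter, and the groups overlapped for each of the 2. Without overlap in the other direction were the 5 endothelial markers (489.5 to 911.6 and 943.2 to 1463) and the 2 measured of 3 erythroid markers (122.2 to 447.1 and 625.3 to 1002). The sums of the 7 macrophage markers (5635 to 10169 and 5114 to 33802) overlapped, yet all 7 had a lower mean in mTERC- tumours. Their median log2 difference was -1.14, in the direction of the carboxylesterases, with 4 of 7 at an unadjusted limma p under 0.05 and none past the threshold. The part of these cell types in the carboxylesterase values was not tested.

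The adenovirus comparison asked how acute TRF2 inhibition in liver differed from a control virus. All 6 measured carboxylesterases had a higher signal with Ad TRF2DBDM than with Ad GFP, and 5 of the 6 at least 2-fold. Of 7789 genes compared, 4.62% reached 2-fold in the same direction and 2.9% in the opposite direction, a background beside which the count stands as a description, since the genes were chosen with this pair of arrays known. With each array centred on its median these shares were 3.59% and 4.28%, and 4 of the 6 members, without Ces2a, were at least 2-fold higher. With the constant of 32 and the brightest probe set of each gene, the 4 Ces1 genes had ratios from 3.47 to 10.9, and the 2 Ces2 genes 2.03 and 1.31. With a constant 4 times as high, Ces1e (log2 ratio 0.77) and Ces2a (0.78) changed places. The median log2 ratio was 1.82 for the 6 genes and 0.02 for all genes. A gene was compared when its signal reached the median of either array, which was 52.5 with Ad TRF2DBDM and 46.1 with Ad GFP, and Ces1d, Ces1e and Ces1f did so on the Ad TRF2DBDM array alone. With no level filter all 6 were compared as well, and 5 of the 6 were at least 2-fold higher, beside 3.18% of all genes.

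**Figure D3:**
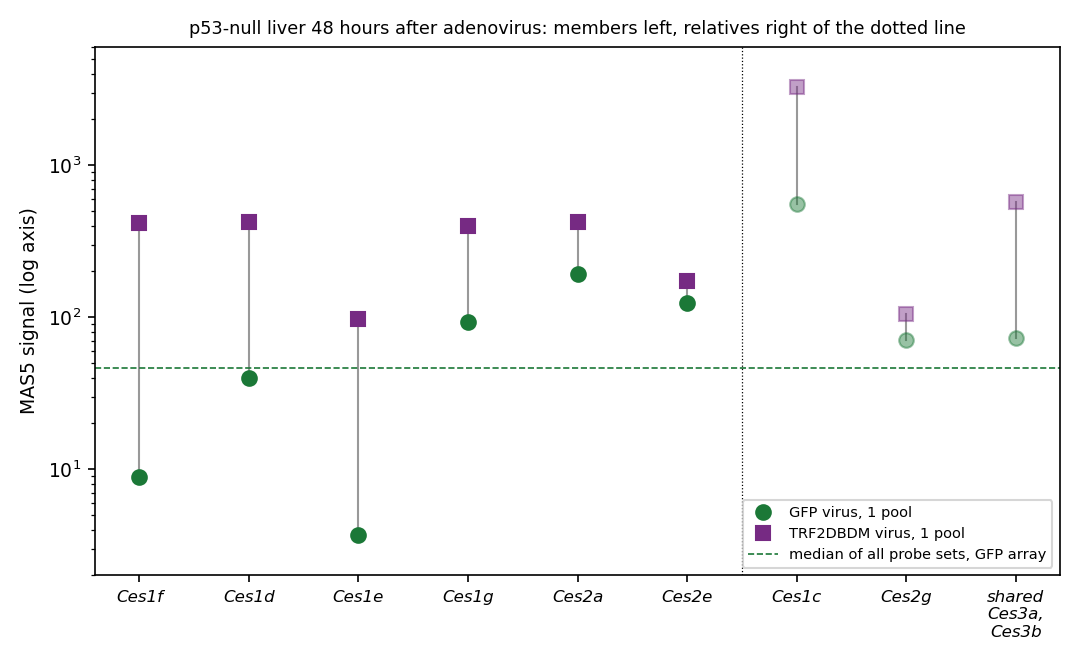
MAS5 signal (log axis) of each carboxylesterase on the Ad TRF2DBDM array (purple squares) and the Ad GFP array (green circles), each a pool of 3 mice, with members left of the dotted line and relatives right of it. The lines join the 2 values of a gene: the gap is widest for Ces1f (413.2 and 8.9) and Ces1e (96.9 and 3.7) and narrowest among members for Ces2e (171.9 and 124).

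Among the lipid-mobilising enzymes, Ces1f gave 413.2 with Ad TRF2DBDM and 8.9 with Ad GFP, a ratio of 10.9 on the scale of signal plus 32. Its log2 ratio was 5.39 with a constant of 1 and 1.98 with one 4 times as high, so with a signal of 8.9 the size of the ratio depends on the constant. The probe set of Ces1f is also of a type that can take up signal from related transcripts. Ces1d gave 422.3 and 39.7, a ratio of 6.34, or log2 ratios of 3.38 and 1.71 with the same other constants. The other probe sets of Ces1d gave 195.4 and 11.9 (ratio 5.18), and 63.8 and 17.8 (ratio 1.92). All 3 probe sets of Ces1d were thus higher with Ad TRF2DBDM, by unequal amounts, the lowest of them below the ratio of Ces2a. Ces1g gave 399.5 and 92.3, a ratio of 3.47. Egasyn, Ces1e, gave 96.9 and 3.7, a ratio of 3.61, or log2 ratios of 4.38 and 0.77 with the same other constants, since its Ad GFP signal was only 3.7. Its partner gene Gusb stood at 78.2 and 97.7. In the Ces2 group, Ces2a gave 420.7 and 191.5, a ratio of 2.03, and Ces2e 171.9 and 124, a ratio of 1.31 at percentile 77.1.

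The relatives outside the chosen set were measured on the same arrays. Ces1c, the plasma esterase, gave 3272.5 with Ad TRF2DBDM and 555.4 with Ad GFP, a ratio of 5.63. The shared Ces3a and Ces3b probe set gave 574.3 and 72.7, a ratio of 5.79. Ces2g, at 104.9 and 71.1, had a ratio of 1.33, and Ces4a gave 37.4 and 33. With 1 pooled array for each virus, no error can be attached to the order of these ratios, and the order of Ces1e and Ces2a turned with the added constant.

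The 8 hepatocyte markers on this array summed to 61964 with Ad TRF2DBDM and 48073 with Ad GFP, a ratio of 1.29. All 8 were higher with Ad TRF2DBDM and 1 of them at least 2-fold, Cps1 of the urea cycle, with a ratio of 3.52. Their median log2 ratio was 0.52, and the part of hepatocyte content in the carboxylesterase ratios was not tested. The 7 macrophage markers summed to 1770 and 1307. Of the 5 that passed the level filter 4 were higher with Ad TRF2DBDM, and 3 at least 2-fold, Csf1r (ratio 3.25), C1qb (2.49) and Adgre1 (2.24), with a median log2 ratio of 1.16. Cd68 went the other way, at 319.6 and 798.9. The part of macrophages in the carboxylesterase ratios was not tested. The 5 neutrophil markers summed to 1263 and 1871. The 3′/5′ ratio of Gapdh was 0.841 with Ad TRF2DBDM and 0.793 with Ad GFP.

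The tumours and the adenovirus livers were measured on different arrays scaled separately, so only ranks within an array are set side by side. A rank is a percentile among the probe sets that both arrays hold. Ces1f stood at percentile 59.0 to 96.6 in the tumours, 89.2 with Ad TRF2DBDM and 18.7 with Ad GFP. Ces1e stood at 36.1 to 82.4 in the tumours, 65.0 with Ad TRF2DBDM and 9.07 with Ad GFP. Ces1d stood at 80.3 to 97.2, then 89.4 and 46.5, and Ces1g at 91.1 to 97.0, then 88.8 and 64.9. Ces2a stood at 81.6 to 96.4 in the tumours, 89.4 with Ad TRF2DBDM and 78.6 with Ad GFP, and Ces2e at 84.4 to 90.6, 76.8 and 70.8. For all 6 genes the Ad GFP liver thus ranked below every tumour, and for Ces1g and Ces2e the Ad TRF2DBDM liver did too. No untreated liver was among the samples, so these ranks have no baseline without virus.

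**Figure D4:**
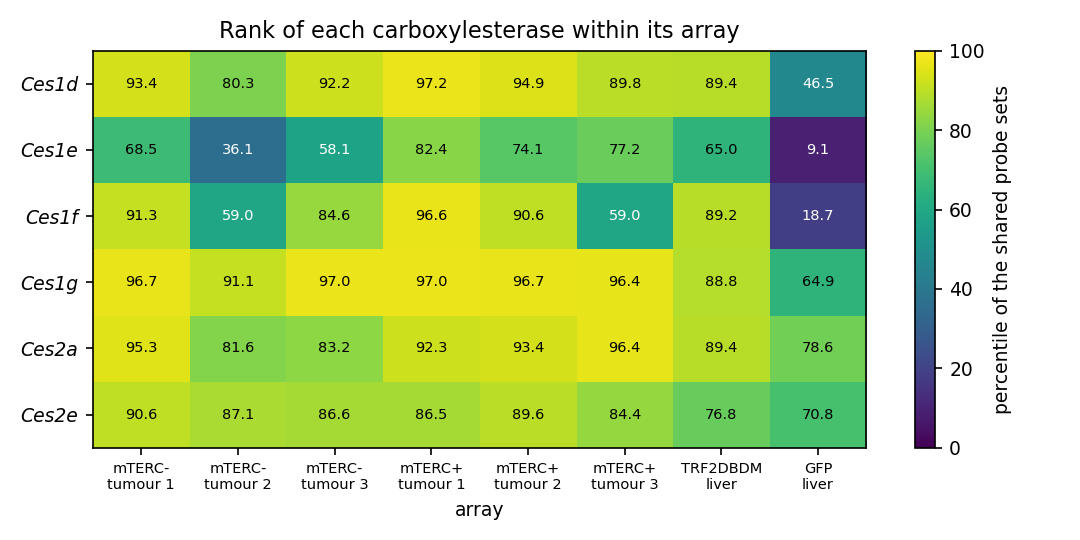
Percentile of each carboxylesterase among the probe sets shared by both arrays, for the 6 carcinomas and the 2 adenovirus livers (colour and number). The Ad GFP column holds the lowest percentile of every gene, from 9.07 for Ces1e to 78.6 for Ces2a.

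Genes of the same metabolic setting were described from 4 further lists, and none of their genes passed the test in the tumours. Of 14 tested genes for lipid droplet lipases and VLDL assembly, 9 had a lower and 5 a higher mean in mTERC- tumours, with a median log2 difference of -0.10. Cideb, a lipid droplet protein that loads VLDL with lipid, gave 3063.5, 999 and 1761.4 in mTERC- tumours and 6041.3, 3811.1 and 4069.5 in mTERC+ tumours. These groups did not overlap, and the log2 difference was -1.35 (SE 0.40, limma adjusted p = 0.906). The lowest Cideb signal, 999, was on mTERC- tumour 2, and differences of the list genes are not given without that tumour. Apob, the structural protein of VLDL, differed by -0.87 (SE 0.43, limma adjusted p = 0.953). Lipe, hormone-sensitive lipase, differed by 1.03 (SE 0.54, limma adjusted p = 0.953). Its signals were low, at 148.7, 197.4 and 76.1 in mTERC- tumours and 121.1, 16.9 and 38.4 in mTERC+ tumours. The groups overlapped, the array medians were 54.5 to 75.1, and the highest Lipe signal was on mTERC- tumour 2. In the adenovirus pair 1 of 13 genes of the list was at least 2-fold higher, Aadac, a microsomal deacetylase with lipase activity, at 1298.3 and 339.4. Its ratio was 3.58, beside 1.53 for Cideb, and Dgat1, which completes triacylglycerol synthesis, was lower at 311.1 and 504.4. The median log2 ratio of the list was 0.23.

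Of 11 tested genes for other ester and epoxide hydrolases, 8 had a lower and 3 a higher mean in mTERC- tumours, with a median log2 difference of -0.14. Ephx2, soluble epoxide hydrolase, gave 2259.3, 2394.9 and 1759 in mTERC- tumours and 5626.6, 2632.2 and 3692.5 in mTERC+ tumours, without overlap, at a log2 difference of -0.83 (SE 0.35, limma adjusted p = 0.953). Nceh1, a cholesteryl ester hydrolase, differed by -0.90 (SE 0.42, limma adjusted p = 0.953), with its lowest signal, 169.6, on mTERC- tumour 2. Bphl, a serine hydrolase that activates valacyclovir, differed by -0.64 (SE 0.35, limma adjusted p = 0.953). In the adenovirus pair 8 of 9 genes of the list were higher with Ad TRF2DBDM and 5 of 9 at least 2-fold, with a median log2 ratio of 1.29. Aadac stands on this list too. Bphl gave 1203.6 and 120.1, a ratio of 8.12, and Pon1, the lipoprotein-bound paraoxonase, 2096.2 and 448.7, a ratio of 4.43. Ephx2 gave 1909.2 and 761.1, a ratio of 2.45.

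Of 13 tested transcription factors of liver metabolism, 8 had a lower and 5 a higher mean in mTERC- tumours, with a median log2 difference of -0.02. Nr1h3, the liver X receptor, differed by -0.93 (SE 0.40, limma adjusted p = 0.953), with its lowest signal, 292.3, on mTERC- tumour 2. Nr0b2, the small heterodimer partner, differed by 0.68 (SE 0.42, limma adjusted p = 0.953). Foxa2 differed by 0.35 (SE 0.38, limma adjusted p = 0.967). In the adenovirus pair 5 of 12 were higher and 7 of 12 lower, and 1 was at least 2-fold apart. This was Nr1h4, the bile acid receptor, at 205.6 with Ad TRF2DBDM and 77.4 with Ad GFP (ratio 2.17). Ppara, a receptor for fatty acids, gave 121.4 and 53.4, and Nr1i3, a sensor of foreign compounds, 262.2 and 143.

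The retention receptors that return proteins to the endoplasmic reticulum were listed with Gusb. Kdelr3 gave 86.3, 106.8 and 109 in mTERC- tumours and 66.6, 8.8 and 55.8 in mTERC+ tumours, without overlap, at a log2 difference of 0.90 (SE 0.54, limma adjusted p = 0.953). These signals are low, beside medians of 54.5 to 75.1 on the tumour arrays. Kdelr1 differed by 0.30 (SE 0.43, limma adjusted p = 0.968). In the adenovirus pair all 4 genes of the list were lower with Ad TRF2DBDM, 2 of them at least 2-fold. Kdelr3 gave 13.8 with Ad TRF2DBDM and 74.5 with Ad GFP, and Kdelr1 232.5 and 531.7, while the median log2 ratio of the 4 genes was -0.66. Kdelr3 reached the array median on the Ad GFP array alone.

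With members, predicted genes and clone names passed over, 5 genes ran most like the mean log2 level of the 6 carboxylesterases over the 6 tumours. They were Rcbtb1 (Pearson r 0.999), Bcl6b (0.990), Acp5 (0.989), Gnpnat1 (0.987) and Il1rap (0.986). All 5 had their lowest signal on mTERC- tumour 2, as did the mean of the carboxylesterases. Without that tumour the r were 0.998, 0.970, 0.963, 0.964 and 0.968 over 5 tumours. They are the top of 11980 genes after those omissions, ranked on few tumours, and such an r has no test behind it.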

How the data were processed

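Total RNA of 6 tumours and 2 pooled livers was hybridised to 2 kinds of Affymetrix array. The deposited values are probe set signal intensities on a linear scale from MAS5, per the submitters' processing notes, and the MAS5 version is not given in the sources used here. The mean signal without the outer 2% of values at each end was 150.0 on every tumour array and 150.1 on both liver arrays, and no further scaling was applied.

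Probe sets annotated to 1 gene symbol were used, the one with the highest mean for each gene, on log2(signal + 32). Tumour genes at or above the median level (11980 of 18194) were tested two-sided in R 4.3.3 by limma 3.58.1, whose empirical Bayes step had a variance trend, with Benjamini-Hochberg adjustment over all genes and a threshold of 0.05. Adenovirus genes reaching the median of either array (7789 of 12394) were compared as ratios of signal + 32, without a test. The number of arrays limits the precision, and a p-value sets the group difference against the spread between these tumours, moderated across genes.

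The members and lists were chosen with earlier results of these data known. Named were all members and relatives. Of each list, up to 3 genes with the smallest p and up to 3 with the largest adenovirus ratio were named. The 5 genes most like the members' mean were added, with predicted genes and clone names passed over. The alternatives were other normalizations, pseudocounts, filters and probe set rules, tumours left out, a block for the 18S control, no variance trend and array weights. The correlations and SD without mTERC- tumour 2 were added after the data were seen. The fit was tested on simulated data. The levels of the deleted genes were not analysed here.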

Additional observations from a re-analysis of the deposited data

How the results depend on the processing

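No member passed the threshold under any of the alternatives run (limma, smallest adjusted p 0.255 to 0.9998 over the settings). With each tumour left out in turn, the median log2 difference of the members ranged from -1.35 to -0.21, and 1 to 2 members had groups without overlap, the second being Ces2a without mTERC- tumour 1 and Ces1d without mTERC+ tumour 3. Of all genes, 18.3% to 23.3% then had groups without overlap, against 10.1% with all tumours. A block for the 18S control turned the median to 0.20 and the differences of Ces1f to 0.48, Ces1g to 0.077 and Ces2a to 0.33. Since both tumours with a low 18S signal were mTERC-, this block compares mTERC- tumour 1 alone with the 3 mTERC+ tumours, and it gives no count of overlap. Beyond this the cause of the turned signs was not tested. With single tumours left out, Ces1f ranged from -1.82 to 0.29 (0.01 without mTERC- tumour 2), Ces1g from -0.91 to 0.041 and Ces2e from -0.059 (without mTERC- tumour 1) to 0.35. In the adenovirus pair, 3 members were at least 2-fold higher with a pseudocount 4 times as high and 5 with one of 1, beside 2.12% and 8.71% of all genes, and the median log2 ratio was 1.02 and 2.74, against 1.82 with 32. The labels tie no mTERC- tumour to an mTERC+ tumour, and each virus was 1 pool, so no paired analysis was made. The background of low signals is not known here, which limits the ratios of Ces1e, Ces1f and Ces1d, whose Ad GFP signals were 3.7, 8.9 and 39.7.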
